A study of Ovis aries with 6 samples.

Results

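Protein synthesis is run by a set of soluble factors that act on the ribosome. Initiation factors (EIF) bring the start transfer RNA, the mRNA and the small ribosomal subunit together, and elongation factors (EEF) then deliver aminoacyl transfer RNAs and move the ribosome along the mRNA. The choroid plexus, the tissue whose epithelium secretes cerebrospinal fluid, makes and exports large amounts of protein, transthyretin (TTR) above all. The genes described here are those whose symbol starts with EIF and a digit from 1 to 6, or with EEF and 1 or 2, without the EIF2AK kinases, and whose mean level over all pools was at least 1 CPM, a count scaled to the total of its library. The symbols gave 61 genes and the threshold left 60 of the 33609 genes listed. EIF4E1B, at 0 counts in every pool, was the gene that fell outside the threshold, and EEF1A2, at a mean of 3.04 CPM, was the member nearest to it. All 60 passed the filter on low counts. The rule used no difference between groups, but the gene family was chosen with earlier results of these data known.

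Choroid plexus was taken from ewes with an intact thyroid in short days (Short), ewes with an intact thyroid in long days (Long), and thyroidectomised ewes in long days (THX). The series gives 24 ewes in all but 8 per group and 7 for THX, which do not add up, so the number of ewes is uncertain by 1. RNA of the ewes was mixed in equal amounts into 2 pools per group, each from 3 to 4 ewes. PolyA RNA of the 6 pools was sequenced and reads were counted per gene. The p-values thus rest on how far pools differ, and the spread among single ewes was not measured. By the labels THX and Long differ in the thyroid alone and Long and Short in day length alone, while THX and Short differ in both, so the 2 factors cannot be told apart in that comparison.

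The pools held 48282883 to 82100653 counts, and the members' counts ran from 101 to 462651. Of the 10 choroid plexus epithelium markers listed, 9 were tested, and their summed level, nearly all of it TTR, was 90219 to 96278 CPM in Short, 110930 to 112630 CPM in Long and 121910 to 143790 CPM in THX pools. These and all later CPM are scaled by the trimmed mean of M values (TMM). The median centred log2 level of the same 9 markers ran the other way, at 0.06 and 0.09 in Short, −0.00 and 0.02 in Long, and −0.03 and −0.08 in THX pools. Of the 9, 6 lay below 0 in THX against Short, and the median of the 9 was −0.04. HTR2C (log2 difference −1.39, edgeR adjusted p = 0.00168) and KL (−0.85, adjusted p = 0.033) lay lowest. AQP1 and OTX2 lay near 0 (−0.03 and −0.04), and TTR, CLIC6 and FOLR1 lay above it (0.54, 0.40 and 0.32). In a bulk sample fewer cells of a type and less RNA per cell cannot be told apart. On the first principal component of all tested genes Short pool 1 (−28.9) and THX pool 2 (30.9) lay at the ends, and on the second THX pool 1 lay apart at 31, where the next pool lay at 4.35.

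None of the 60 genes passed the quasi-likelihood test of edgeR at an adjusted p of 0.05 in any of the 3 comparisons. The lowest adjusted p among them was 0.081 in THX against Short, 0.342 in Long against Short and 0.57 in THX against Long pools. The share of all 18019 tested genes that passed was 0.916%, 0% and 0.283%. Below that threshold the members leaned upward from Short to Long and THX pools. In Long against Short 42 of 60 log2 differences lay above 0 (background 49.7% of all tested genes), in THX against Short 43 of 60 (background 49%), and in THX against Long 33 of 60 (background 50.3%). The members' median log2 differences were 0.09, 0.08 and 0.01, beside medians of −0.00, −0.01 and 0.00 over all tested genes. Long against Short and THX against Short share the Short pools, so the first pair of counts is not independent.

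Scaling moved these medians. With total counts alone the median of all tested genes shifted to −0.05, −0.11 and −0.05 in Long against Short, THX against Short and THX against Long, and the members' medians became 0.04, −0.02 and −0.04. Relative to all genes they were then 0.09, 0.09 and 0.01. The statements on direction below are relative to all genes in this sense.

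**Figure D1:**
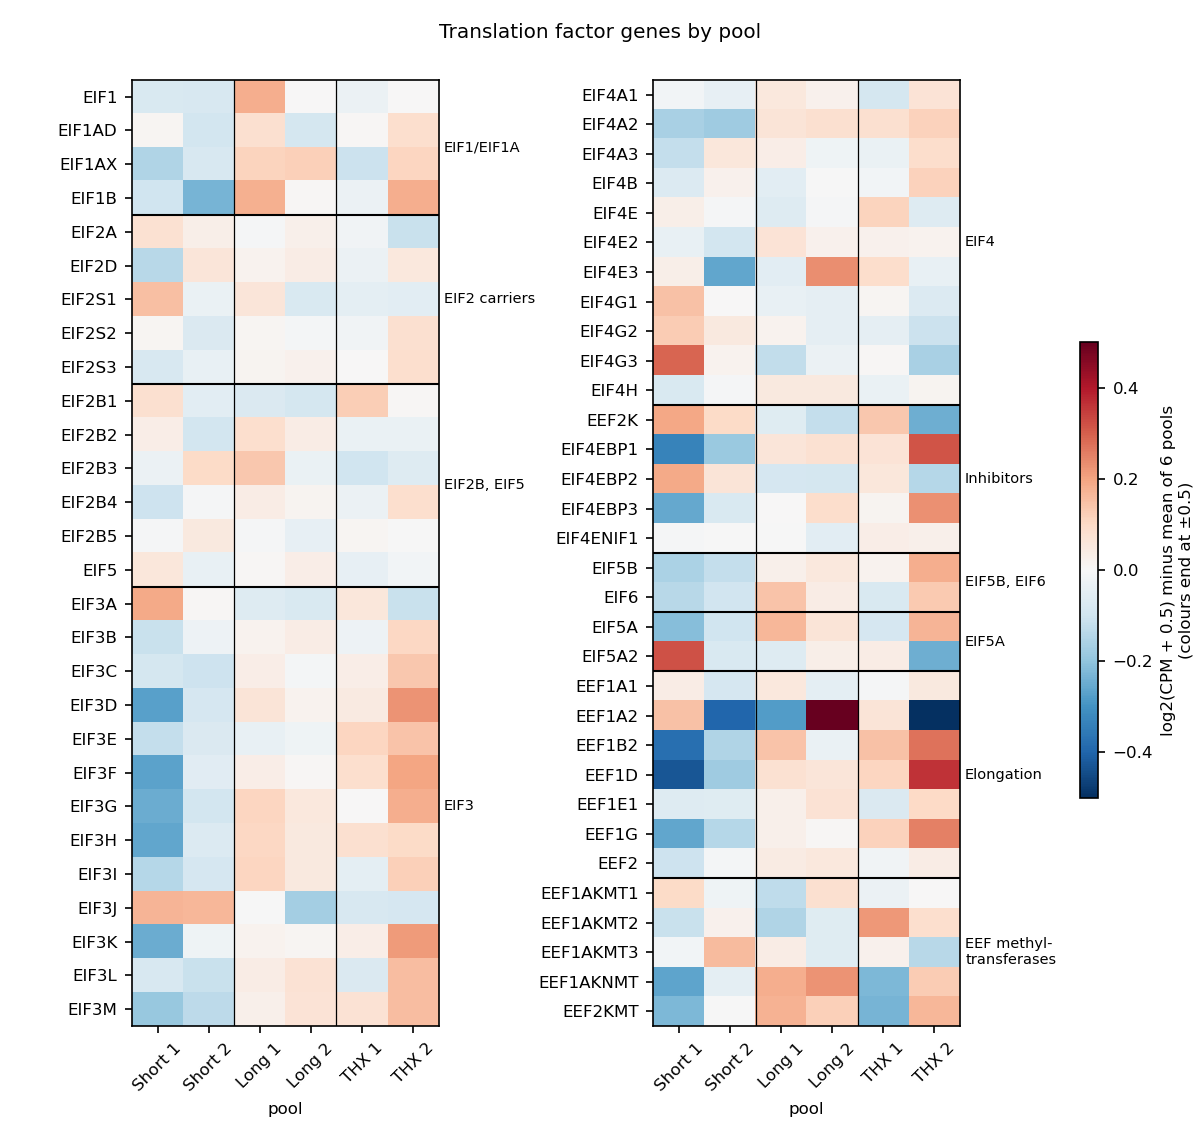
Each row is 1 of the 60 genes and each column 1 pool, and the colour gives the log2 level, log2(CPM + 0.5), minus the mean of the 6 pools. Lines part the roles. Most EIF3 rows and EEF1B2, EEF1D and EEF1G are blue in both Short pools, EIF3J is red in both and EIF3A in Short pool 1, and EEF1A2 is dark red in Long pool 2 only (6.02 CPM).

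Pools of the same group differed too. The median of the members' centred log2 levels was −0.08 and −0.05 in Short, 0.03 and 0.02 in Long, and 0.00 and 0.08 in THX pools. Short pool 1 held the lowest level of 26 of the 60 genes and THX pool 2 the highest of 27. Over all tested genes these pools held the lowest of 24.1% and the highest of 24.5%. They are the pools at the ends of the first component, and the part of that component in the result was not tested. The level changed little from pool to pool for most members. The coefficient of variation over the 6 pools had a median of 7.41%, against 10.1% over the 12972 tested genes with at least the lowest member's mean CPM. It ran from 2.03% for EIF2B5, a subunit of the exchange factor of EIF2, to 51.3% for EEF1A2.

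The lowest p-values of the 60 genes in THX against Short were those of EEF1D, EEF1G and EEF1B2. EEF1A carries aminoacyl transfer RNA to the ribosome as a GTP-bound protein, and EEF1B2, EEF1D and EEF1G are subunits of EEF1B, the complex that recharges it with GTP. EEF1D (identifier 443504) was at 220 and 261 CPM in Short, 312 and 309 in Long, and 319 and 380 in THX pools. Both Short pools lay below both Long pools, and both THX pools lay above them. The log2 difference was 0.37 (SE 0.116, unadjusted p = 0.016, adjusted p = 0.342) in Long against Short and 0.54 (SE 0.116, unadjusted p = 0.00241, adjusted p = 0.081) in THX against Short, by edgeR.

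EEF1B2 (identifier 101115859) was at 138 and 161 CPM in Short, 198 and 175 in Long, and 198 and 216 in THX pools. EEF1G (identifier 101111240) was at 720 and 780 CPM in Short, 878 and 866 in Long, and 934 and 1026 in THX pools. Both genes had the order of EEF1D, with both Short pools lowest and both THX pools highest, although for EEF1B2 Long pool 1 and THX pool 1 came close, at 197.65 and 197.74 CPM. For EEF1B2 the log2 difference was 0.32 (SE 0.106) in Long against Short and 0.47 (SE 0.106, edgeR adjusted p = 0.0875) in THX against Short. For EEF1G it was 0.22 (SE 0.084) and 0.39 (SE 0.084, edgeR adjusted p = 0.0819). In THX against Long the log2 differences of EEF1D, EEF1B2 and EEF1G were 0.17, 0.15 and 0.17, with SE of 0.116, 0.106 and 0.084 and adjusted p of 0.787, 0.803 and 0.633 by edgeR.

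EEF1A1 (identifier 100101228), the carrier that this complex serves, did not share the pattern. Its levels were 5472 and 5023 CPM in Short, 5524 and 5159 in Long, and 5315 and 5513 in THX pools, and the groups overlapped in all 3 comparisons. The log2 difference was 0.03 (SE 0.082) in Long against Short, 0.05 (SE 0.082) in THX against Short and 0.02 (SE 0.082) in THX against Long, and its sign turned when total counts alone were used (−0.02, −0.05 and −0.03). EEF1A1 has near-identical processed copies in mammalian genomes, and the handling of reads matching several places is not given in the sources used here. Its counts are therefore uncertain. EEF2, the translocase that moves the ribosome along the mRNA, was chosen for mention after its values were seen. It was at 1160 and 1236 CPM in Short, 1282 and 1294 in Long, and 1230 and 1278 in THX pools, a log2 difference of 0.10 in Long against Short and 0.07 in THX against Short.

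EEF1A2, the paralogue of EEF1A1 known from neurons and muscle, was set apart by 1 pool. It was at 3.16 and 2.01 CPM in Short, 2.23 and 6.02 in Long, and 2.96 and 1.82 in THX pools, from 327 counts in Long pool 2 and 101 to 267 in the other pools. The groups overlapped in every comparison. The log2 difference of THX against Long was −0.79 (SE 0.491, edgeR adjusted p = 0.751) and became 0.10 without Long pool 2. That of Long against Short was 0.66 (SE 0.488) and became −0.21 without that pool. The summed level of the 6 neuronal markers, nearly all of it SNAP25, was 315 CPM in Long pool 2 and 293 to 339 CPM over all pools, while STMN2 alone was highest there (0.497 CPM). The sum of the 5 tested pituitary markers, carried by PRL in THX pool 1, was 134 CPM in Long pool 2 and 31.9 to 691 CPM over all pools. CGA (44.1 CPM) and LHB (21.8 CPM) were at their highest in Long pool 2. TSHB was at 15.9 CPM there and 0.268 CPM in Long pool 1, but highest in THX pool 1 (16.4 CPM). POMC and PRL were also highest in THX pool 1 (30.7 and 588 CPM), against 2.47 and 50.1 CPM in Long pool 2. The part of these cell types in the level of EEF1A2 was not tested.

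The unadjusted p-values and the separation of the groups restate the members' upward lean in counts. They come from the same levels and are no separate support. In Long against Short 11 of the 60 genes had an unadjusted p under 0.05 in the upward direction and 0 in the downward direction (background 6.47% upward and 7.33% downward). In THX against Short 14 did upward and 0 downward (background 10.8% and 11.8%), and in THX against Long 0 did in either direction (background 4.16% and 4.92%). The 11 were EIF4A2, EEF1D, EIF4EBP1, EEF1B2, EIF3M, EIF3H, EIF3G, EIF5A, EEF1G, EIF1AX and EIF1B. Both Long pools lay above both Short pools in 33 of the 60 genes and below in 9 (background 26.7% and 26.8%), and both THX pools lay above both Short pools in 25 and below in 7 (background 25.7% and 26.7%). In THX against Long the counts were 11 above and 9 below, or 18.3% and 15%, near the background of 18.5% and 18.7%. The mean levels ran Short, Long, THX upward in 22 of the 60 genes (36.7%, against 23.2% of all tested genes) and Short, THX, Long upward in 16 (26.7%, against 14.7%).

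With total counts alone the counts became 5 upward and 2 downward in Long against Short (background 3.98% upward), and 6 upward and 5 downward in THX against Short (background 5.29% upward). The upward counts also changed when single pools were left out. Downward counts above 0 then appeared in Long against Short without Short pool 2 or either THX pool. In THX against Short they appeared without Short pool 2 or THX pool 1. Leaving out Short pool 1 turned the count of 11 in Long against Short into 2 (background 1.96%). Leaving out Long pool 1 gave 1 (background 1.94%), Long pool 2 gave 2 (background 2.69%), and either THX pool gave 17 (background 9.85% and 9.81%). For THX against Short the count of 14 became 6 when Short pool 1 was dropped, 9 when THX pool 2 was, and 21 when THX pool 1 was (background 5.17%, 7.56% and 14.9%). The median of that comparison was 0.04 with THX pool 1 alone and 0.13 with THX pool 2 alone. Without Short pool 1 and THX pool 2 together, 42 of 60 genes in Long against Short and 41 of 60 in THX against Short still lay above 0 (background 51% and 50.9%), and the medians were 0.08 and 0.05.

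**Figure D2:**
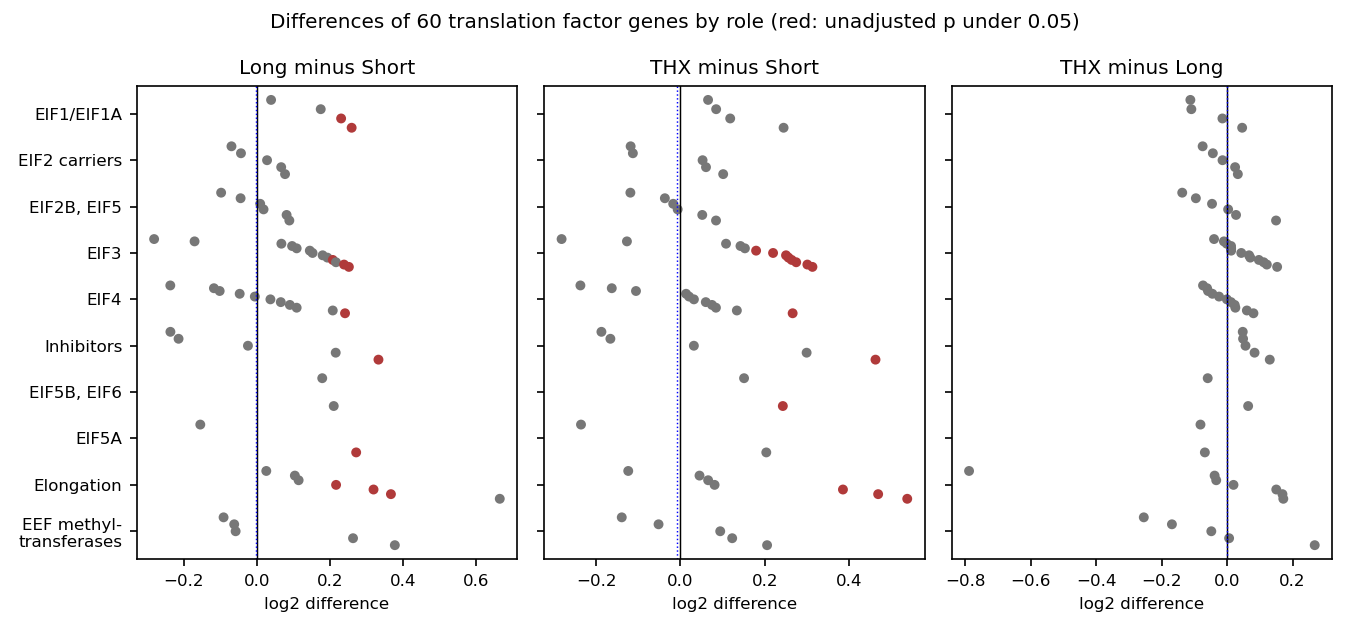
Each point is 1 gene, placed by its log2 difference on the horizontal axis and by its role on the vertical axis, with 1 panel per comparison, and the dotted line is the median of all tested genes. Red points had an unadjusted p under 0.05: 11 in Long against Short, 14 in THX against Short and 0 in THX against Long.

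DESeq2 made more calls in the same direction. It called EIF4A2 in Long against Short, 1 of 60 genes (background 0.882%), none in THX against Long (background 2.49%), and 9 of 60 in THX against Short, or 15% (background 9.77%). The 9 were EEF1B2, EEF1D, EEF1G, EIF3D, EIF3E, EIF3F, EIF3M, EIF4A2 and EIF4EBP1, all higher in THX pools. For EEF1D its adjusted p was 0.000644, and its adjusted p spanned 0.000644 to 0.341 over the 14 alternatives, at log2 differences of 0.41 to 0.67. EEF1D passed in 4 of 14 alternatives, EEF1G and EIF4EBP1 in 3, EEF1B2 in 2, and EIF3E, EIF3M and EIF4A2 in 1.

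EIF3 is the largest initiation factor, a complex that holds the small subunit and recruits the mRNA to it, and 13 of its subunit genes were members. None passed the test. Of the 13, 11 lay above 0 in Long against Short with the groups apart, and the remaining pair, EIF3A and EIF3J, lay below 0 with the groups apart (background for groups apart 26.7% upward and 26.8% downward). The median over the 13 was 0.15 and the range −0.28 to 0.25. In THX against Short the median was 0.22, 11 lay above 0, and 8 had an unadjusted p under 0.05 upward (61.5%, background 10.8%). These were EIF3C, EIF3D, EIF3E, EIF3F, EIF3G, EIF3H, EIF3K and EIF3M. In THX against Long 10 lay above 0 and the median was 0.04.

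EIF3M, a subunit of the complex's core, was at 123 and 128 CPM in Short, 143 and 147 in Long, and 148 and 156 in THX pools. Every Long pool lay above every Short pool and every THX pool above every Long pool. The log2 difference was 0.21 (SE 0.072, edgeR adjusted p = 0.342) in Long against Short and 0.27 (SE 0.072, adjusted p = 0.11) in THX against Short. EIF3E (identifier 101118881), also of the core, was at 156 and 161 CPM in Short, 165 and 166 in Long, and 182 and 186 in THX pools. It had the lowest p of all members in THX against Long (log2 difference 0.15, SE 0.067, unadjusted p = 0.056, edgeR adjusted p = 0.57). Here the step between THX and Long pools was larger than that between Long and Short (0.07), a difference that was not tested.

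EIF3A, the scaffold subunit, ran the other way. It was at 271 and 239 CPM in Short, 227 and 226 in Long, and 247 and 220 in THX pools. Both Short pools lay above both Long pools, while THX pool 1 fell between the Short pools. The log2 difference was −0.17 (SE 0.093, edgeR adjusted p = 0.431) in Long against Short and −0.13 (SE 0.093) in THX against Short. EIF3J, the loosely bound subunit, is named after its values were seen. It was at 4.15 and 4.14 CPM in Short, 3.64 and 3.18 in Long, and 3.41 and 3.40 in THX pools (log2 difference −0.28 in both comparisons with Short, adjusted p = 0.477 and 0.365 by edgeR). It had 173 to 351 counts per pool, where each of the other EIF3 genes had at least 4582.

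Factors of the EIF4 group bind the cap at the end of the mRNA and unwind the mRNA behind it. Not every gene counted in the group, such as EIF4A3, has that role. EIF4A1 and EIF4A2 are paralogous helicases of the cap-binding complex. EIF4A2 (identifier 100037661) was at 691 and 683 CPM in Short, 807 and 816 in Long, and 815 and 837 in THX pools, with both Short pools below all others. Its log2 difference of 0.24 in Long against Short (SE 0.070, unadjusted p = 0.0109) had the lowest p of the 60 genes there but did not pass (adjusted p = 0.342 by edgeR, 0.0482 by DESeq2, 0.0482 to 0.871 over the alternatives). In THX against Short it was 0.27 (SE 0.070, adjusted p = 0.111 by edgeR), and in THX against Long 0.03 (SE 0.070). EIF4A1 was at 121 and 119 CPM in Short, 127 and 124 in Long, and 115 and 128 in THX pools, with log2 differences of 0.07 (SE 0.079) in Long against Short and 0.02 in THX against Short. A ratio of counts within a pool does not depend on scaling. Per 100 counts of EIF4A1 there were 571 and 575 counts of EIF4A2 in Short, 636 and 658 in Long, and 708.5 and 653 in THX pools, so both Short pools had the lowest ratio, and THX and Long pools overlapped. No test was made of this ratio.

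The scaffold proteins EIF4G1 and EIF4G3, which bridge the cap-binding protein and EIF3, and EIF4G2, which lacks the site that binds EIF4E, lay higher in both Short pools than in both Long pools. EIF4G3 was at 323 and 267 CPM in Short, 242 and 258 in Long, and 265 and 236 in THX pools. Short pool 1 stood well above the others, and the log2 difference was −0.24 (SE 0.111) in both comparisons with Short pools, with edgeR adjusted p of 0.381 and 0.254. EIF4G2 was at 1110.0 and 1050 CPM in Short, 1029 and 983 in Long, and 986 and 943 in THX pools, with log2 differences of −0.10 (SE 0.077) in Long against Short and −0.16 (SE 0.077) in THX against Short. EIF4G1 was at 432 and 391 CPM in Short, 380.4 and 378 in Long, and 393 and 372 in THX pools (log2 difference −0.12, SE 0.080, in Long against Short). THX pool 1 lay above Short pool 2 for EIF4G1, so those groups overlapped. Within pools the ratio of EIF4G2 to EIF4G1 was 251 to 271 counts per 100, and the groups of Short and Long pools overlapped in it.

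The cap-binding protein EIF4E was at 78.2 and 76.3 CPM in Short, 73.2 and 76.4 in Long, and 82.8 and 73.2 in THX pools. EIF4E2, a relative that binds caps without engaging EIF4G, was at 41.0 and 39.5 CPM in Short, 44.1 and 42.7 in Long, and 42.7 and 42.6 in THX pools. EIF4E3, another relative, was at 23.6 and 19.2 CPM in Short, 22.3 and 27.2 in Long, and 24.6 and 22.5 in THX pools. EIF4E and EIF4E3 overlapped between groups in all 3 comparisons, and for EIF4E2 both Short pools lay below both Long pools (log2 difference 0.11) and both THX pools (0.08). Over the 11 EIF4 genes 6 lay above 0 in Long against Short, 8 in THX against Short and 5 in THX against Long.

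**Figure D3:**
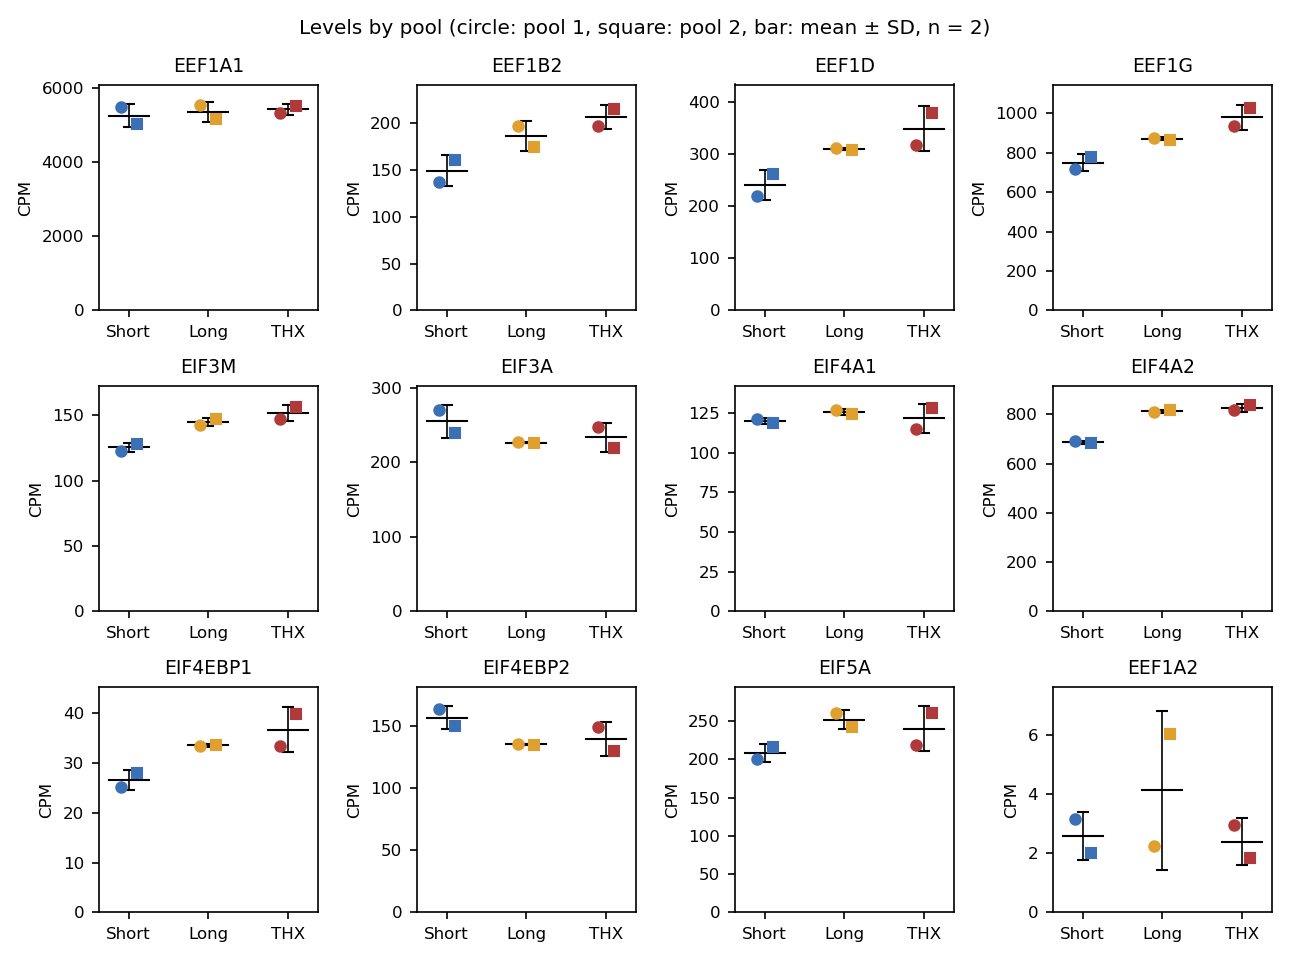
CPM of 12 genes in each pool, with the vertical axis from 0, circles for pool 1, squares for pool 2, and a bar with the mean ± SD of the 2 pools. EEF1B2, EEF1D, EEF1G, EIF3M, EIF4A2 and EIF4EBP1 have both Short pools lowest, EIF3A and EIF4EBP2 have a Short pool highest, and EEF1A1 and EIF4A1 stay near level.

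The 4E-binding proteins hold EIF4E away from EIF4G until the kinase mTOR phosphorylates them. EIF4EBP1 (identifier 101111426) was at 25.2 and 28.0 CPM in Short, 33.4 and 33.7 in Long, and 33.5 and 39.9 in THX pools. Both Short pools lay below all others, and THX pool 1 lay between the Long pools. The log2 difference was 0.33 (SE 0.109, adjusted p = 0.342) in Long against Short, 0.46 (SE 0.109, adjusted p = 0.0942) in THX against Short and 0.13 (SE 0.109, adjusted p = 0.851) in THX against Long, by edgeR.

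EIF4EBP2 was at 164 and 150.45 CPM in Short, 136 and 135 in Long, and 149.8 and 130.4 in THX pools, with both Short pools above all others. Its log2 difference of −0.21 in Long against Short (SE 0.091) had an unadjusted p of 0.0503 (adjusted p = 0.362 by edgeR). EIF4EBP3 was at 10.6 and 12.03 CPM in Short, 12.7 and 13.5 in Long, and 12.8 and 14.96 in THX pools, with log2 differences of 0.22 and 0.30 against Short. Per 100 counts of EIF4EBP2 there were 15.4 and 18.6 counts of EIF4EBP1 in Short, 24.6 and 24.9 in Long, and 22.4 and 30.6 in THX pools. Both Short pools were again lowest, and the THX pools lay on either side of the Long pools.

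**Figure D4:**
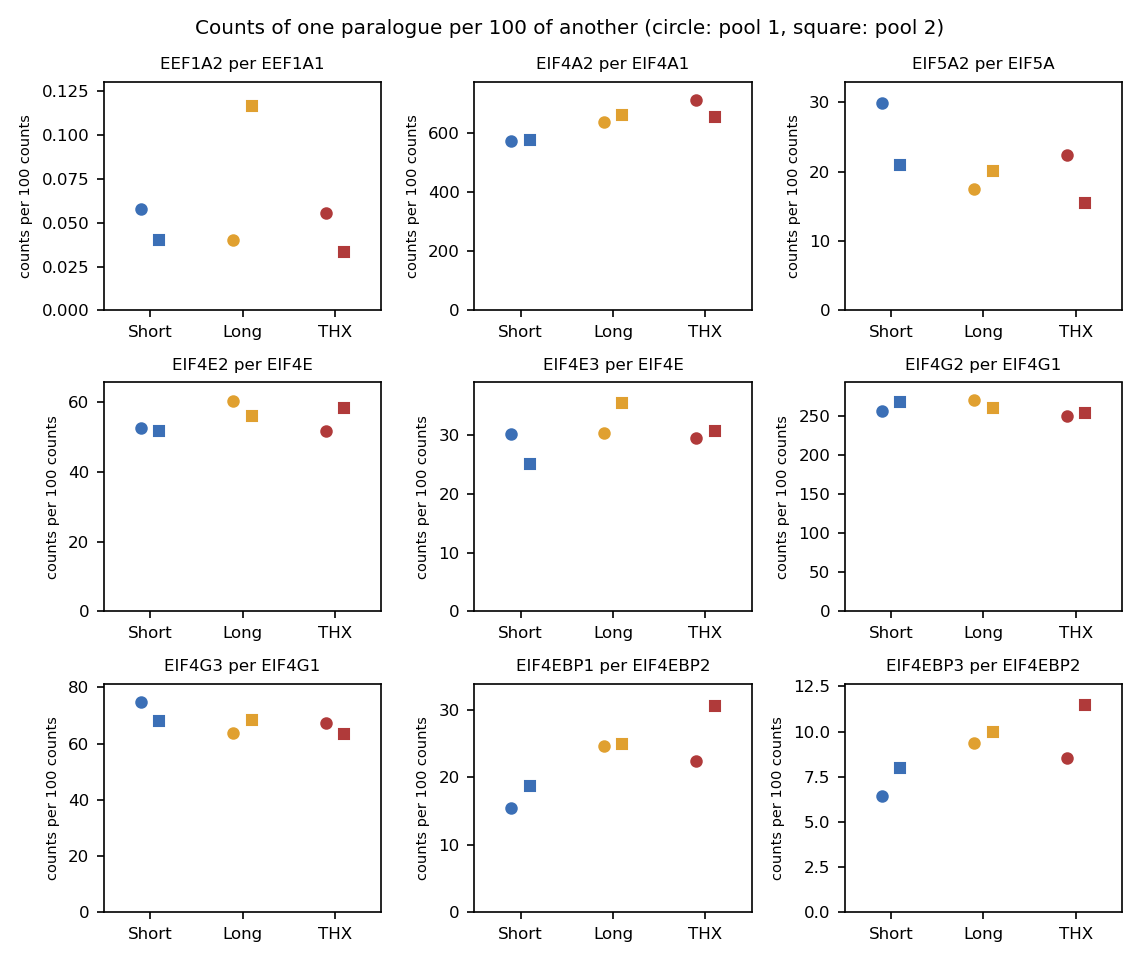
Each panel gives the counts of 1 gene per 100 counts of a paralogue in each pool, with circles for pool 1 and squares for pool 2 and the vertical axis from 0. The Short pools lie below all others for EIF4A2 per EIF4A1 (571 and 575) and for EIF4EBP1 per EIF4EBP2 (15.4 and 18.6), and Long pool 2 stands apart for EEF1A2 per EEF1A1 (0.117).

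EEF2K, the kinase that phosphorylates EEF2 and slows elongation, and EIF4ENIF1, which carries EIF4E into the nucleus, completed the inhibitors. In THX against Long all 5 inhibitors lay above 0, with a median of 0.06 and a lowest adjusted p of 0.851. Against Short, the Long pools had 2 inhibitors above 0 and 3 below, so the list had no shared direction. EEF2K and EIF4ENIF1 are named after their values were seen. EEF2K ran from 68.1 to 92.3 CPM, with both Short pools above both Long pools, and EIF4ENIF1 from 50.2 to 53.4 CPM.

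EIF1 and EIF1A choose the start codon, and EIF2 carries the start transfer RNA. EIF1, which guards start codon choice, was at 392 and 390.5 CPM in Short, 469 and 414 in Long, and 405 and 414 in THX pools. Long pool 1 stood above the others, and the log2 difference in Long against Short was 0.17 (SE 0.083, edgeR adjusted p = 0.385). The 4 genes grouped here by symbol were EIF1, EIF1B, EIF1AX and EIF1AD, and not each is known to choose start codons. All 4 lay above 0 in Long against Short, with a median of 0.20, and all 4 in THX against Short, with a median of 0.10. Among the EIF2 subunits, which form the complex of GTP and start transfer RNA, and EIF2A and EIF2D, which can deliver transfer RNA without it, the medians were 0.03, 0.05 and −0.01 in Long against Short, THX against Short and THX against Long. EIF2A was at 69.9 and 67.7 CPM in Short, 66.1 and 67.5 in Long, and 65.4 and 61.4 in THX pools, so the groups did not overlap in any comparison, at log2 differences of −0.04, −0.12 and −0.07 with SE of 0.074.

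EIF2B, the exchange factor that recharges EIF2 and is blocked when EIF2 is phosphorylated, and EIF5, which triggers hydrolysis of its GTP, had medians of 0.01 in Long against Short, −0.01 in THX against Short and −0.02 in THX against Long. EIF5 was at 190.4 and 179 CPM in Short, 184 and 187 in Long, and 178 and 182 in THX pools (log2 difference 0.01 in Long against Short, SE 0.070). EIF5B, the GTPase that joins the ribosomal subunits, was at 116 and 119 CPM in Short, 132 and 134 in Long, and 131 and 147 in THX pools. Both Short pools lay below the rest, and the log2 difference in THX against Short was 0.24 (SE 0.080, edgeR adjusted p = 0.153). EIF6, named after its values were seen, keeps the subunits apart until they are mature. It lay above both Short pools in every Long and THX pool, at 54.0 to 58.0 and 49.8 to 57.7 CPM against 47.7 and 49.1 CPM.

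EIF5A, which carries the amino acid hypusine and helps the ribosome past difficult sequences, was at 200.1 and 216 CPM in Short, 260.1 and 243 in Long, and 219 and 261 in THX pools. Its log2 difference in Long against Short was 0.27 (SE 0.102, adjusted p = 0.346) and in THX against Short 0.20 (SE 0.102, adjusted p = 0.28), by edgeR. EIF5A2, its paralogue, was at 59.8 and 45.4 CPM in Short, 45.7 and 48.8 in Long, and 49.1 and 40.3 in THX pools, and the groups overlapped. The 5 enzymes that methylate the elongation factors had medians of −0.06, 0.09 and −0.05 in Long against Short, THX against Short and THX against Long. EEF1AKMT2, which methylates EEF1A, was at 11.01 and 12.1 CPM in Short, 10.7 and 11.4 in Long, and 13.98 and 12.7 in THX pools. Both THX pools lay above the rest, at a log2 difference of 0.27 from Long pools (SE 0.125, unadjusted p = 0.0688, edgeR adjusted p = 0.604). EEF1AKMT1 was at 21.2 and 19.5 CPM in Short, 18.1 and 20.98 in Long, and 19.4 and 19.9 in THX pools, and its groups overlapped.

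Of the members, 9 are known for a 5′ terminal oligopyrimidine (TOP) tract, a run of C and T at the start of the mRNA that puts its translation, like that of ribosomal proteins, under mTOR. They are EEF1A1, EEF1B2, EEF1D, EEF1G, EEF2, EIF3E, EIF3F, EIF3H and EIF4B. Of the 9, 8 lay above 0 in Long against Short, with a median of 0.18, against 34 of the other 51 members with a median of 0.08. In THX against Short the counts were 9 of 9 and 34 of 51, with medians of 0.25 and 0.07, and in THX against Long 8 of 9 and 25 of 51, with medians of 0.12 and −0.00. The difference between the 2 sets was not tested, and EEF1A1, EEF2 and EIF4B did not lie far from 0 (log2 differences of 0.05, 0.07 and 0.07 in THX against Short). Beside them, 77 cytosolic ribosomal protein genes, taken by symbol, had median log2 differences of 0.35 in Long against Short, 0.48 in THX against Short and 0.14 in THX against Long. Their centred median level was −0.36 and −0.19 in Short, 0.09 and 0.05 in Long, and 0.09 and 0.32 in THX pools, with Short pool 1 lowest and THX pool 2 highest, as for the 60 factors. Those genes are part of the same TOP class and were known to differ when the members were chosen, so they are no independent support.

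Of 46 other genes of the pathway, listed in 6 groups of translation regulators, 45 were tested, and none passed the edgeR test in any comparison. In THX against Short 12 had an unadjusted p under 0.05 upward (26.7%, background 10.8%) and 2 downward (background 11.8%). Long against Short gave 7 upward (15.6%, background 6.47%) and 6 downward (background 7.33%). THX against Long gave 2 upward (4.44%), near the background of 4.16%, and 0 downward. Those 2, named after their values were seen, were PABPC1 and PDCD4, an inhibitor of EIF4A. PABPC1, the poly(A)-binding protein that links the mRNA's tail to EIF4G, was at 233 and 243 CPM in Short, 254 and 254 in Long, and 279 and 291 in THX pools. Each group lay above the one before without overlap, and the log2 difference was 0.26 in THX against Short (edgeR adjusted p = 0.116) and 0.17 in THX against Long (adjusted p = 0.543).

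The other TOP mRNAs of that list, 7 genes, all lay above 0 in all 3 comparisons, with medians of 0.17 in Long against Short, 0.31 in THX against Short and 0.09 in THX against Long. RACK1, a ribosome-bound scaffold, had log2 differences of 0.29 in Long against Short and 0.46 in THX against Short (edgeR adjusted p = 0.342 and 0.0847), and NPM1, a nucleolar chaperone, had 0.17 and 0.31 (adjusted p = 0.437 and 0.142). DOHH, the enzyme that completes hypusine on EIF5A, was at 16.3 and 17.1 CPM in Short, 21.7 and 21.2 in Long, and 19.1 and 21.5 in THX pools, a log2 difference of 0.36 in Long against Short (edgeR adjusted p = 0.342). RPTOR, the subunit by which mTOR complex 1 binds its substrates, was at 57.1 and 52.9 CPM in Short, 48.2 and 47.0 in Long, and 47.1 and 46.2 in THX pools, with both Short pools above the rest (log2 difference −0.21 in Long against Short). The 6 kinase and phosphatase genes that act on EIF2 had 2 above 0 and 4 below in Long against Short.

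Levels of genes listed as markers of other cell types differed between some of the groups. Bulk counts do not show which cells they came from, and the epithelium itself may express some of them. The 6 fibroblast markers lay below 0 in THX against Long in 6 of 6 cases (median −0.55), at summed levels of 441 and 582 CPM in THX, 735 to 806 CPM in Long and 657 to 846 CPM in Short pools. The 5 ependymal markers lay above 0 in 5 of 5 cases there (median 0.24), at summed levels of 618 and 693 CPM in THX and 491 to 559 CPM in the other pools. FOXJ1 alone made up most of that sum, at 323 to 496 CPM over all pools. Against Short, the THX pools had 6 of 6 fibroblast markers below 0 (median −0.56) and 4 of 5 ependymal markers above 0 (median 0.38). Where Long pools were set against Short, 3 of 6 fibroblast and 3 of 5 ependymal markers lay above 0. All 4 tested macrophage markers did (median 0.23), at summed levels of 114 and 133 CPM in Short, 142 and 147 in Long, and 120.2 and 131 in THX pools. All 5 oligodendrocyte markers lay below 0 in THX against Short (median −0.74) and 4 of 5 in THX against Long (median −0.47). They summed to 63.7 and 57.6 CPM in Short, 42.9 and 60.4 in Long, and 40.8 and 43.5 in THX pools. Endothelial markers summed to 553 to 682 CPM over all pools, with 4 of 6 below 0 in THX against Short (median −0.15). Each tested marker had counts above 0, and the part of these cell types in the members' levels was not tested.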

How the data were processed

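PolyA RNA of 6 pools of ewe choroid plexus was sequenced with a stranded kit, per the labels' protocols. The authors deposited raw counts, 1 value for each gene and pool, with no normalisation. Per the submitters' processing notes, TopHat2 2.1.1 and featureCounts 2.0.0 were among the tools used. Build, annotation and strand setting were not given in the sources used here. Overlapping, antisense and duplicated genes are therefore uncertain. Transcript lengths were not used, so counts of different genes do not give their relative numbers of transcripts. Ratios between paralogues are compared only between pools. Of the 60 members, 58 matched identifier and symbol in a table of RefSeq genes (assembly ARS-UI_Ramb_v3.0).

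Low counts were removed by the default filter of edgeR 4.0.16 (R 4.3.3), leaving 18019 genes. Counts were scaled by TMM, and all 6 pools entered 1 quasi-likelihood fit with a mean for each group (3 residual and 3.96 prior degrees of freedom). Tests were two-sided, adjusted by the Benjamini-Hochberg method over all tested genes. SE is the log2 difference divided by the root of F. The procedure was tested on simulated data. Alternatives used DESeq2 1.42.0, limma-voom 3.58.1, other scaling and filters, fewer pools and a block for the pool number. The variance between the 2 pools of a group was 28.3 (Short), 15.8 (Long) and 70.1 (THX) times that of counting. No pair thus looks like 1 library sequenced again. These values cannot tell separate pools from libraries made of the same RNA.

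The members and lists were chosen with earlier results of these data known. Values in every pool are given for the 5 members with the lowest p per comparison, the member with most counts in each role and 6 sets of paralogues, and pathway genes are named where they are among the 6 with the lowest p, of which 1 is not reported here. Plots used matplotlib 3.10.9 in Python 3.11.15.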

Additional observations from a re-analysis of the deposited data

How the results depend on the processing

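Of the 27 named genes over 3 comparisons, none passed by edgeR in the fit reported. Total counts alone moved the members' medians in Long against Short, THX against Short and THX against Long to 0.0391, −0.0176 and −0.0376, the genes above 0 in the last 2 comparisons to 26 and 19, and the upward unadjusted counts in the first 2 to 5 and 6, beside 2 and 5 downward. DESeq2 called 1 gene in Long against Short and 9 in THX against Short (background 0.882% and 9.77%). It gave 1 upward unadjusted p in THX against Long (background 4.2%). With no filter 4 of the 60 members (6.67%) passed in THX against Short. Calls over all genes rose there as well, to 908 from 165 in the fit reported. With only the 4 pools compared 17 members had an upward and 2 a downward unadjusted p in Long against Short (background 10% upward). Without Short pool 1 and THX pool 2 together, chosen after seeing the data, 3 had one upward and 4 downward in THX against Long (background 8.74% upward), and 7 upward and 0 downward in THX against Short (background 8.56%), where the median was 0.0467. The cause of these changes was not tested.

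Same-numbered pools had correlations of their deviations of −0.059 (Short and Long), 0.211 (Short and THX) and 0.067 (Long and THX). With 2 pools per group these values cannot settle whether the pool numbers pair the pools. With the pool number as a replicate block 1 member, EEF1D, passed in THX against Short (adjusted p = 0.0451) and none in the other comparisons, and calls over all genes were 0, 48 and 392 in Long against Short, THX against Long and THX against Short, against 0, 51 and 165 without it.

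In the fits without 1 pool at a time, the lone pool is assumed to vary like the other groups. The members' median log2 difference then ranged from 0.0442 to 0.126 in THX against Short. The upward unadjusted counts ranged from 1 to 17 in Long against Short, 6 to 21 in THX against Short and 0 to 3 in THX against Long.

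EEF1A2 has no value under the minimum mean of 5 CPM. Some signs were reversed, in differences of which none had passed the test. With total counts alone the log2 differences were EEF1A1 −0.0245, EIF5 −0.0412 in Long against Short, EEF1A1 −0.0537, EIF1 −0.0335, EIF4A1 −0.0798, EIF4E −0.0834, EIF4E2 −0.0143 in THX against Short, EEF1A1 −0.0292, EEF1AKMT1 −0.0425, EIF3A −0.003, EIF4A2 −0.0233, EIF4G1 −0.0354 in THX against Long. With DESeq2 size factors EIF4G3 was at 0.0013 in THX against Long. With no filter EIF4G3 was at 0.0014 in THX against Long. With DESeq2 EIF4G3 was at 0.0013 in THX against Long. Without 1 pool at a time the ranges that crossed 0 were as follows. In Long against Short they were EEF1AKMT1 −0.1619 to 0.0435, EIF5A2 −0.3393 to 0.0589, EEF1A1 −0.0354 to 0.0883, EEF1AKMT2 −0.1316 to 0.0078, EIF5 −0.0374 to 0.0561, EEF1A2 −0.214 to 1.2109. In THX against Short they were EEF1A2 −0.5093 to 0.2454, EEF1AKMT1 −0.1108 to 0.01, EIF5 −0.0835 to 0.0104, EEF1A1 −0.0159 to 0.1082, EIF4E −0.0748 to 0.1072, EIF4E3 −0.0061 to 0.2926, EIF4A1 −0.0516 to 0.0991. In THX against Long they were EEF1AKMT1 −0.0955 to 0.1155, EEF1A1 −0.0288 to 0.0696, EEF1A2 −1.3345 to 0.0978, EIF4E3 −0.2108 to 0.0781, EIF4G3 −0.0873 to 0.0824, EIF3A −0.0445 to 0.1275, EIF4A1 −0.122 to 0.0288, EIF4E −0.0326 to 0.1494, EIF4EBP2 −0.0567 to 0.1468, EIF4G1 −0.0289 to 0.0528, EIF5A −0.1978 to 0.0518, EIF4EBP3 −0.0301 to 0.1896, EIF5A2 −0.2322 to 0.0573, EIF5B −0.0192 to 0.144.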
